A study of Mus musculus with 4 samples.

Results

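The genes described here store, import, sense and recycle iron: the ferritin chains Fth1 and Ftl1, the transferrin receptor Tfrc, the endosomal ferrireductase Steap3, the ferritin cargo receptor Ncoa4, the iron chaperone Pcbp1, the iron sensors Ireb2 and Aco1, and the haem oxygenase Hmox1. The rule names them by symbol and uses no measured value, although the list was drawn up with earlier results of these data known. Of these 9 genes, 8 had a row among the 28141 genes of the expression table, and all 8 passed the filter on low values and were tested. Aco1 was not analysed here for want of a row.

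The samples were 4 RNA-seq libraries of polyadenylated RNA from leukaemia cells that had been taken from the bone marrow of C57BL/6 mice, in a study of chronic myeloid leukaemia. One group of 2 libraries carried the genotype LSCs-WT (WT) and the other group of 2 the genotype LSCs-YBX1cKO, a conditional knockout of Ybx1, whose product is a nucleic acid binding protein with a cold-shock domain. The sources used here do not give the leukaemia oncogene, the Cre driver, the age of the mice, any treatment or whether each library came from its own animal. The p-values therefore measure the spread between these libraries, which may be technical.

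Iron enters most cells on transferrin, which binds its receptor and is taken into endosomes, where STEAP3 reduces the iron before it is moved to the cytosol. Spare iron is handed by the chaperone PCBP1 to ferritin, a hollow shell built of heavy chains, which oxidise iron, and light chains, which help to mineralise it; NCOA4 carries ferritin to the lysosome when iron is needed. When iron is scarce, the sensors IRP1 (from Aco1) and IRP2 (from Ireb2) bind a short hairpin, the iron-responsive element, which blocks translation of ferritin messenger RNA and protects the transferrin receptor messenger RNA from decay. Haem oxygenase 1, the product of Hmox1, opens the haem ring and sets its iron free, and is induced by haem and by oxidative stress. In marrow, macrophages recycle iron from red cells, and dividing and erythroid cells take up much of it.

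The hairpins that tie 3 of these genes to the iron sensors are shown first, because ferritin and transferrin receptor messenger RNAs are the textbook pair under opposite control by the same proteins. They were read from GENCODE M21 transcripts on GRCm38, written 5′ to 3′ as DNA, with the loop of 6 bases in capitals and the bases of the stem in lower case around it. Ferritin carries 1 hairpin in the 5′ UTR of each chain, on chr19:9982732-9982760 (plus strand) for Fth1 and chr7:45459779-45459807 (minus strand) for Ftl1.
Fth1: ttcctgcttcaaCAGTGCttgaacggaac
Ftl1: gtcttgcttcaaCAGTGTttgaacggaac
Over these 29 bases the pair differed at 3 positions, T1G, C4T and C18T, counted from 1 at the 5′ end with the Fth1 base first. The 5 paired bases on each side of the loop were the same in both chains.

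Tfrc carried 4 such matches in its 3′ UTR, all on the plus strand of chromosome 16, within 520 bases. In the order of the transcript they lie at chr16:32631219-32631247, chr16:32631598-32631626, chr16:32631663-32631691 and chr16:32631710-32631738.
Tfrc site 1: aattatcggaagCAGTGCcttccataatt
Tfrc site 2: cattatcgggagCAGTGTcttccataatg
Tfrc site 3: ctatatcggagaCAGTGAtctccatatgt
Tfrc site 4: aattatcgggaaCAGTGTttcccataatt
Any pair of these sites differed at between 4 and 11 of the 29 bases, and site 2 alone held a G-T pair among the 5 pairs the search reads. The search asked for a C, then CAGTGN at a distance of 5 bases, flanked by 5 base pairs of which 1 could be open and G-T pairs were allowed, on the transcript strand alone. It found a match in the 5′ UTR of 0.587% of genes and in the 3′ UTR of 3.57% of genes, and Tfrc was the 1 gene with 4 or more matches in its 3′ UTR. The principal transcripts of Steap3, Ncoa4, Pcbp1, Ireb2, Aco1 and Hmox1 held no match in either UTR, which says only that these letters are not there.

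**Figure D1:**
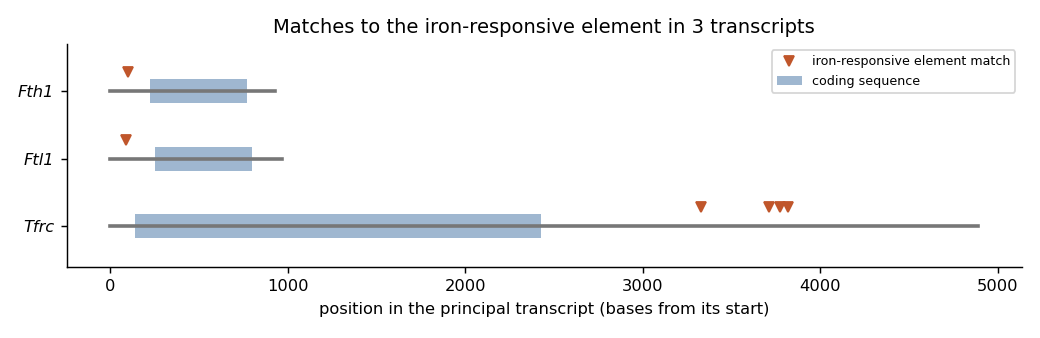
Principal transcripts of Tfrc, Ftl1 and Fth1 drawn to scale in bases from the transcript start, with the coding sequence as a box and each iron-responsive element match as a triangle. The ferritin transcripts have 1 match before the coding sequence, and Tfrc has 4 after it.

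Values below are log2 levels, obtained by multiplying the deposited log-scale values by 0.693. This factor was inferred from the values; read as plain log2, the highest gene alone would stand for 168069563 reads in a WT library, and every log2 fold change here would be 1.44 times as large with the same p-values. Fold changes are YBX1cKO minus WT, so a negative value is lower in the knockout, and a gene is called when its limma adjusted p, over all 15527 genes tested, is under 0.05. By this rule 3035 genes were higher and 2768 lower. When the levels were scaled to the same sum per library, which moved the median log2 fold change of all genes by -0.125, the split was 2132 higher and 4047 lower. As a check of the labels, Ybx1 had log2 levels of 9.36 ± 0.067 in WT and 8.16 ± 0.041 in the knockout (SD, n = 2 each). Which exons were deleted is not known from the labels. Of 12 stem and progenitor markers 8 had a row, with WT means from 1.07 (Hoxa9) to 11.71 (Mecom), while Kit, Cd34, Flt3 and Meis1 had none. A missing row was not read as a low level. The macrophage marker Adgre1 was high in all 4 libraries, between 15.81 and 15.93. The other 6 macrophage markers with a row were lower, with WT means from -0.02 (Timd4) to 9.24 (Axl). The markers thus do not settle which cells these are.

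Of the 8 iron genes tested, 1 was higher (Fth1), 5 were lower (Hmox1, Tfrc, Ncoa4, Pcbp1 and Ftl1) and 2 were not called (Steap3 and Ireb2). Of all genes tested, 37.4% were called, 19.5% higher and 17.8% lower. Their median log2 fold change was -0.18, against 0.00 for all genes tested. The groups did not overlap for the 6 called genes, nor for 65.1% of all genes tested. The 6 changes ran from 1.09-fold to 1.52-fold, and none of the 8 lay outside the 5th to 95th percentile of all genes, -0.919 to 0.847. In limma the spread expected of a gene was made to depend on its level; with a constant prior variance instead, Hmox1 and Ncoa4 were the 2 members still called.

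**Figure D2:**
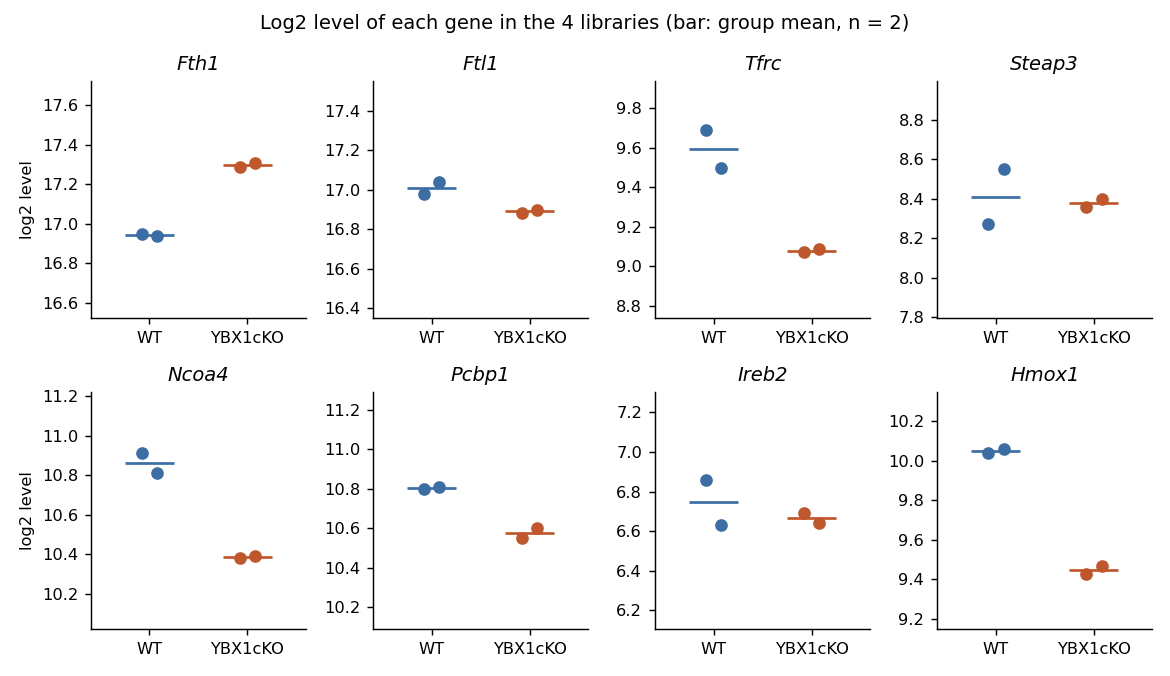
Log2 level of the 8 genes with a row in each of the 4 libraries, with points for libraries and a bar for the mean of 2; each panel spans 1.2 log2 units. Fth1 is higher in both YBX1cKO libraries, Ftl1, Tfrc, Ncoa4, Pcbp1 and Hmox1 are lower in both, and the groups overlap for Steap3 and Ireb2.

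The messenger RNAs of ferritin were by far the most abundant of these genes, and those of its chains moved apart. Protein was not measured. Fth1, the heavy chain (chromosome 19, 9980598 to 9985098, plus strand), had log2 levels of 16.95 and 16.94 in WT and of 17.29 and 17.31 in the knockout. Both knockout libraries lay above both WT libraries, a 1.28-fold rise (log2 fold change 0.36, SE 0.012, limma adjusted p = 1.9e-17). Of all tested genes, 22% had a log2 fold change above that of Fth1. The call was lost with the constant prior variance (limma adjusted p = 0.054). The log2 fold change was 0.62 under quantile normalization and 0.23 with levels scaled to the same sum. Quantile normalization sets a value by its rank, and Fth1 ranked 4 in both WT libraries and 2 in both knockout libraries.

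Ftl1, the light chain (chromosome 7, 45457944 to 45459884, minus strand), had log2 levels of 16.98 and 17.04 in WT and of 16.88 and 16.90 in the knockout. The groups did not overlap, and the fall was 1.09-fold (log2 fold change -0.12, SE 0.015, limma adjusted p = 5.4e-07). This small fall was not called with the constant prior variance (limma adjusted p = 0.30) or under quantile normalization, where Ftl1 was the third gene in every library and so received the same value in all of them (log2 fold change 0.00). With levels scaled to the same sum, its log2 fold change was -0.24.

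Reads of Ftl1 are hard to place. Of the distinct stretches of 50 bases in its principal transcript, 90.6% also occur in annotated transcripts of other genes, 17 in all, against 6.59% for Fth1 (1 gene, Gm6977). Ftl1-ps1, which is named as a pseudogene but annotated with a coding sequence of 549 bases, shares 73.4% of them and Ftl2-ps 29.7%. The pair was picked for mention with its values known. Ftl1-ps1 had log2 levels from 10.07 to 10.41 and Ftl2-ps from 11.17 to 11.35 in the 4 libraries, and neither was called (limma adjusted p = 0.53 and adjusted p = 0.14). The 10 genes with a row that share any such stretch are called copies here, although they include Gm10252 at the Ftl1 locus and short genes such as Gm22774. Together they made up 2.83% and 2.85% of Ftl1 plus copies for WT, against 2.91% and 3.10% for the knockout. Gm22774, which shares 1.09% of the stretches, was called lower (log2 fold change -1.59, limma adjusted p = 0.0032), with log2 levels of 5.19 and 3.12 in the knockout. The sources used here do not say how reads that fit several places were counted, so the Ftl1 level is uncertain. Ftl1 also shares 355 exon bases with Gm10252 on the opposite strand.

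Inside each library the balance of heavy to light chain messenger RNA shifted. Fth1 minus Ftl1 was -0.036 and -0.098 on the log2 scale in WT and 0.414 and 0.406 in the knockout. The means, -0.07 ± 0.044 (SD, n = 2) and 0.41 ± 0.0058 (SD, n = 2), differed by 0.48, more than the spread within either group. The exact permutation p was 0.333, two-sided, which is the smallest that 2 libraries against 2 can give. With the copies added to Ftl1 the shift was 0.47. Fth1 and Ftl1 together had log2 levels of 17.98 ± 0.019 in WT against 18.11 ± 0.014 in the knockout (SD, n = 2 each), higher by 0.13 without overlap. As a share of the summed levels, which were larger in the knockout, they came to 2.32% ± 0.042 for WT and 2.34% ± 0.019 for the knockout (SD, n = 2 each). Fth1 alone took 1.13% and 1.14% in WT, against 1.33% and 1.34% in the knockout, and its rank among all genes was 4 in both WT libraries and 2 in both knockout libraries.

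**Figure D3:**
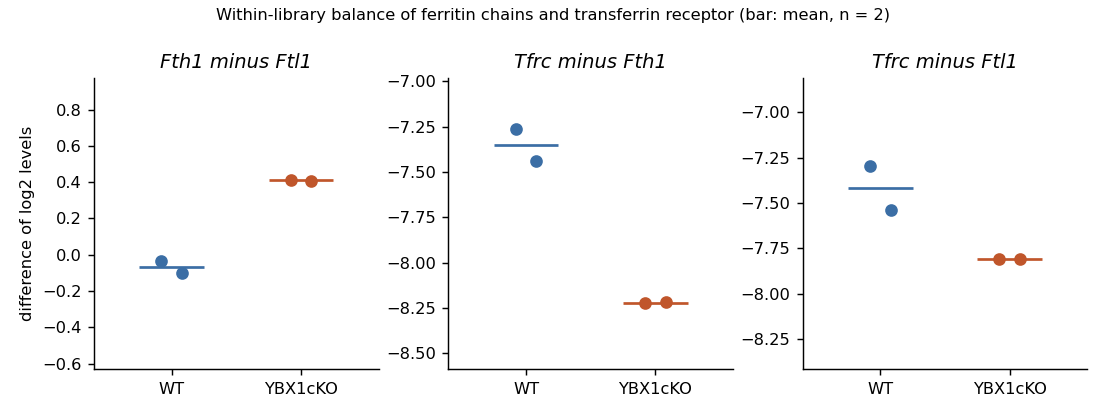
Differences of log2 levels within each library for Fth1 minus Ftl1, Tfrc minus Fth1 and Tfrc minus Ftl1, with points for libraries and bars for the mean of 2. Fth1 minus Ftl1 moves from about 0 in WT to 0.41 in YBX1cKO, and both Tfrc differences are lower in YBX1cKO.

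On the uptake side, the messenger RNA of the receptor fell and that of the reductase did not pass the test. Tfrc, which encodes the receptor for transferrin (chromosome 16, 32608920 to 32632794, plus strand), had log2 levels of 9.69 and 9.50 in WT and of 9.07 and 9.09 in the knockout. Both knockout libraries were below both WT libraries, 1.43-fold lower (log2 fold change -0.51, SE 0.071, limma adjusted p = 2.3e-06). With the constant prior variance the limma adjusted p was 0.057. Relative to Fth1, Tfrc fell by 0.87 on the log2 scale, from -7.35 ± 0.12 (SD, n = 2) to -8.22 ± 0.0053 (SD, n = 2), and relative to Ftl1 by 0.39. The exact permutation p was 0.333 for both, the smallest possible.

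Markers of dividing cells were lower beside Tfrc, and those of erythroid cells were lower in part. All 14 listed genes of dividing cells were lower in the knockout, with a median log2 fold change of -1.20, and their summed level per 1000000 was 2155 and 2154 in WT and 899 and 908 in the knockout. Among them Rrm2 (ribonucleotide reductase), Top2a and Ccnb1 had log2 fold changes of -1.44, -1.48 and -1.30. Of 17 erythroid markers 6 were tested, 3 of them lower and 0 higher, and their summed level was 194 and 188 in WT and 153 and 143 in the knockout. Those 3 were Hemgn, Gata1 and Tal1, of which Gata1 lost its call without YBX1cKO replicate 2 (log2 fold change -0.15) and Tal1 without WT replicate 2 (-0.26). Epor, Rhag and Epb42 did not pass, with log2 fold changes of -0.04, -0.13 and 0.05; the globin genes, Klf1 and Slc4a1 had no row. The part of these markers in the change of Tfrc was not tested. In a bulk library fewer cells of a type and less RNA per cell cannot be told apart.

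Steap3, which reduces ferric iron in the endosome (chromosome 1, 120190757 to 120272705, minus strand), had log2 levels of 8.27 and 8.55 in WT and of 8.36 and 8.40 in the knockout. The groups overlapped, and the log2 fold change of -0.03 (SE 0.098, limma adjusted p = 0.85) had a 95% interval from -0.23 to 0.17. Changes of up to those sizes are within the interval.

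Of the messenger RNAs for ferritin turnover and loading, those of Ncoa4 and Pcbp1 were lower, while that of Pcbp2, given below, was higher. Ncoa4, whose product brings ferritin to the lysosome (chromosome 14, 32159865 to 32179855, plus strand), had log2 levels of 10.91 and 10.81 in WT and of 10.38 and 10.39 in the knockout. It fell 1.40-fold without overlap (log2 fold change -0.48, SE 0.048, limma adjusted p = 1.1e-08), called under every alternative tried, with a largest adjusted p of 0.045. Of its 50-base stretches, 43.1% also occur in Gm6768, a gene without a row.

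Pcbp1, whose product delivers iron to ferritin (chromosome 6, 86524492 to 86526321, minus strand), had log2 levels of 10.80 and 10.81 in WT and of 10.55 and 10.60 in the knockout. The fall was 1.17-fold (log2 fold change -0.23, SE 0.046, limma adjusted p = 0.00022) and was not called with the constant prior variance (limma adjusted p = 0.11); with levels scaled to the same sum the log2 fold change was -0.36. Its paralogue Pcbp2, which also binds iron, had log2 levels of 8.85 and 8.62 in WT and of 9.25 and 9.38 in the knockout. Pcbp2 thus rose 1.5-fold (log2 fold change 0.58, SE 0.082, limma adjusted p = 2.8e-06), while Pcbp1 fell; with the constant prior variance neither was called. Pcbp1 shares 75 exon bases with an antisense gene, 1600020E01Rik.

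Of the pair of iron sensors, Ireb2 (chromosome 9, 54863789 to 54912530, plus strand) was the lowest of the 8 genes. Its log2 levels were 6.86 and 6.63 in WT and 6.69 and 6.64 in the knockout. Both knockout libraries lay between the 2 WT libraries, and the log2 fold change of -0.08 (SE 0.16, limma adjusted p = 0.76) had a 95% interval from -0.42 to 0.26. A change of the size seen for Fth1 or Tfrc in the direction of each is outside this interval, while a fall like that of Pcbp1 is inside it. IRP2 is known to be controlled by protein breakdown through FBXL5, and Fbxl5 rose 1.26-fold (log2 fold change 0.34, SE 0.075, limma adjusted p = 0.00077), a call lost with the constant prior variance.

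Hmox1 had the largest fall of the 8 genes. Its log2 levels (chromosome 8, 75093621 to 75100589, plus strand) were 10.04 and 10.06 in WT and 9.43 and 9.47 in the knockout. The gap between groups was many times the gap within them, so that Hmox1 fell 1.52-fold (log2 fold change -0.60, SE 0.059, limma adjusted p = 8.2e-09), called under every alternative tried with a largest adjusted p of 0.035. Of all tested genes, 11.6% had a lower log2 fold change. The second haem oxygenase gene, Hmox2, which is not inducible in the same way, rose 1.36-fold (log2 fold change 0.45, SE 0.056, limma adjusted p = 4.6e-07), a call also lost with the constant prior variance.

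Macrophage and monocyte markers beside Hmox1 went in several directions. Of 14 markers of iron-recycling macrophages 6 were tested, 1 higher and 2 lower, and the summed level per 1000000 of those with a row was 5222 and 5320 in WT and 5091 and 5183 in the knockout. Adgre1 made up nearly all of it: the other 6 with a row summed to 56.9 and 55.4 in WT and 41.7 and 44.9 in the knockout. The marker that was higher, Adgre1, had a log2 fold change of 0.09, which turned to -0.20 under quantile normalization and -0.03 with levels scaled to the same sum; Axl and Siglec1 were lower. Leaving out 1 library ended the call of Axl (without WT replicate 1, log2 fold change -0.22, or YBX1cKO replicate 1, -0.18) and that of Siglec1 (without WT replicate 1, -1.39, WT replicate 2, -1.62, or YBX1cKO replicate 1, -1.06). The defining markers Cd163, Vcam1 and C1qa had no row. Of 7 tested monocyte genes 4 were higher and 1 lower, led by the lysozyme gene Lyz2 (log2 fold change 2.25), with sums of 1497 and 1509 in WT and 5544 and 5490 in the knockout. These sums mostly follow Lyz2, with mean log2 levels of 13.61 in WT and 15.86 in the knockout. The next highest gene, Cd68, had 11.42 and 12.19. Ms4a6c was the lower one (log2 fold change -1.57), and Csf1r (0.07) and Fcgr1 (0.35) were not called. Of 14 markers of mature neutrophils 7 were tested, 6 higher and 1 lower, led by Mmp8 (log2 fold change 2.75). Their sums were 500 and 535 in WT and 1307 and 1322 in the knockout. Mmp9 and Mmp8 had the highest knockout means, 13.02 and 12.10 on the log2 scale. Lcn2 (0.24) and Cxcr2 (0.34) rose least, and Padi4 was the lower one (-0.17). S100a8, S100a9, Ltf, Ngp, Camp, Retnlg and Ly6g had no row. The part of macrophages, monocytes and neutrophils in the changes of Hmox1 and Fth1 was not tested.

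**Figure D4:**
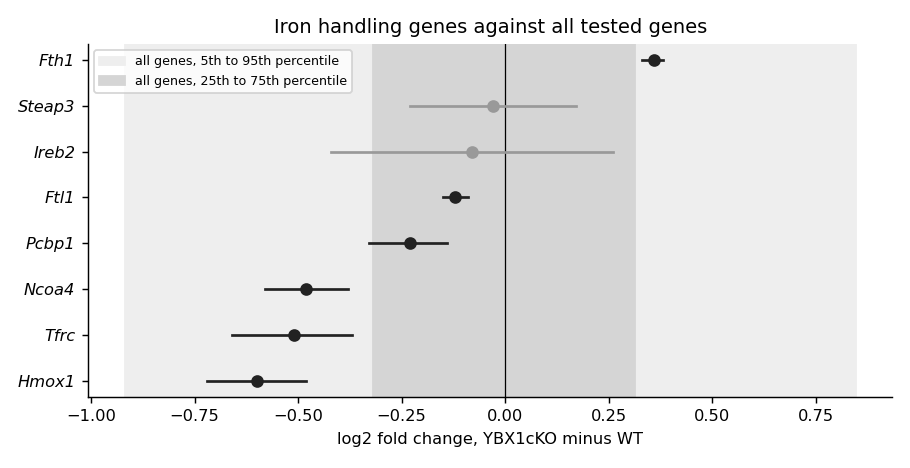
Log2 fold change of each gene (points) with its 95% interval from limma, in black where called and grey where not, over shaded bands for the middle of all 15527 tested genes. Fth1 is the 1 gene to the right of 0, and Hmox1, Tfrc and Ncoa4 lie left of the 25th percentile of -0.319.

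Per length, the 8 genes spanned a wide range of levels. As level per 1000000 of the library sum and per 1000 bases of the principal transcript, the WT means were 12213 ± 32.4 for Fth1 and 12279.9 ± 405 for Ftl1 (SD, n = 2), which do not differ beyond their spread. Pcbp1 followed at 87.8 ± 0.955, Hmox1 at 60.7 ± 0.857, Ncoa4 at 41.3 ± 1.77, Tfrc at 14.2 ± 1.19, Steap3 at 5.96 ± 0.828 and Ireb2 at 1.68 ± 0.18 (SD, n = 2 each), and these 6 levels were apart by more than their spread. The order of the genes was the same in the knockout, except that Fth1, at 14349 ± 93.9, stood above Ftl1, at 10366 ± 110 (SD, n = 2). Hmox1 came to 36.7 ± 0.66 and Tfrc to 9.14 ± 0.0933 there. The place of the ferritin chains depends on the length used: over all annotated exons, 3469 bases for Fth1 and 1340 for Ftl1, the WT libraries stood at 3264 and 3277 for Fth1 and at 8664 and 9078 for Ftl1.

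The genes whose log2 levels, centred on their own mean, were closest to those of Fth1 over the 4 libraries were Acta2, Vps4b and Fbxw2, with root mean square differences of 0.003, 0.004 and 0.005. Closest to Hmox1 were Asns, Ipo7 and Lgals3bp, at 0.011, 0.012 and 0.012. With 2 groups of 2, such likeness mainly says that a gene differs between the groups by a similar amount.

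The other genes of iron and haem handling, 125 in 9 lists, moved both ways. Of the 108 tested, 33 were higher and 20 lower in the knockout (49.1% called, beside 37.4% of all genes), with a median log2 fold change of 0.01. With levels scaled to the same sum, 23 were higher and 35 lower. Genes around transferrin uptake were split, with 4 of 13 higher and 3 lower (6 lower with levels scaled to the same sum, 5 without YBX1cKO replicate 2). Slc39a8, a transporter of zinc, iron and other metals, fell most clearly (log2 fold change -0.67, SE 0.066, limma adjusted p = 1.1e-08). Snx3 and Vps35, which return the transferrin receptor to the cell surface, rose by 0.27 (SE 0.031) and 0.24 (SE 0.034) on the log2 scale, and the endolysosomal channel gene Mcoln1 by 0.34 (SE 0.048). The calls of Snx3, Vps35 and Mcoln1 were lost with the constant prior variance.

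In the small list for storage and iron chaperones, 2 of 6 genes were higher, the Pcbp2 and Fbxl5 given above, and 0 lower; with levels scaled to the same sum 2 were lower, and without YBX1cKO replicate 2 it was 1. Of 6 tested genes of iron export and its hormonal control 1 was higher and 2 lower. The ferroxidase gene Cp fell 2.19-fold (log2 fold change -1.13, SE 0.27, limma adjusted p = 0.0016), a call lost without WT replicate 2 (log2 fold change -0.93). The convertase gene Furin had a log2 fold change of -0.21, a call lost with the constant prior variance, and the BMP receptor gene Bmpr2 rose by 0.78. The exporter gene Slc40a1 had no row.

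Haem synthesis genes were called in 1 direction. Of 14 tested, 5 were lower and 0 higher, with a median log2 fold change of -0.17; with levels scaled to the same sum 10 were lower, and with library medians set equal 1 was higher. Alas1, the housekeeping form of the first enzyme of the pathway, had log2 levels of 13.98 and 13.99 in WT and of 13.56 and 13.55 in the knockout (log2 fold change -0.43, SE 0.022, limma adjusted p = 5.7e-14). Alad, the second enzyme, fell 1.53-fold (log2 fold change -0.61, SE 0.05, limma adjusted p = 4.4e-10). Pgrmc1 and the mitochondrial carrier gene Slc25a39 had log2 fold changes of -0.42 and -0.16, and the fifth was Tmem14c. With the constant prior variance the calls of Pgrmc1 and Slc25a39 were lost. The erythroid first enzyme, Alas2, and the last enzyme, Fech, had no row.

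Around haem breakdown and its control by BACH1 and NRF2, 5 of 13 tested genes were higher and 1 was lower (2 and 1 with levels scaled to the same sum); without WT replicate 1 the higher count was 2, and without WT replicate 2 it was 3. The lower one was Slc48a1, which moves haem out of the endolysosome: it had log2 levels of 12.48 and 12.47 in WT and of 11.78 and 11.71 in the knockout, 1.66-fold lower (log2 fold change -0.73, SE 0.033, limma adjusted p = 5.0e-15). Hmox2 was among the higher ones, with Mafg, a partner of BACH1 and NRF2 on DNA, up by 0.49, and the biliverdin reductase gene Blvrb, up by 0.21. The call of Blvrb was lost without WT replicate 1 and without WT replicate 2, and with levels scaled to the same sum.

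Genes for the assembly of iron-sulphur clusters went both ways, with 8 of 27 higher and 4 lower, or 5 higher and 8 lower with levels scaled to the same sum. The scaffold gene Iscu had the largest rise of the list: its log2 levels were 11.17 and 11.19 in WT and 12.16 and 12.15 in the knockout, a 1.97-fold rise (log2 fold change 0.98, SE 0.035, limma adjusted p = 6.9e-17). Cisd1, a cluster protein of the outer mitochondrial membrane, Isca2 and the cytosolic assembly factor gene Ciao3 rose by 0.56, 0.57 and 0.55 on the log2 scale.

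Of 13 antioxidant genes linked to NRF2, of which Hmox1 is a known target, 5 were higher and 3 lower, or 3 and 3 both with levels scaled to the same sum and under quantile normalization. Sqstm1 and the cystine transporter gene Slc7a11 rose by 0.35 and 0.45 on the log2 scale, G6pdx rose by 0.30, and Prdx1 had a log2 fold change of -0.25. The calls of Sqstm1, G6pdx and Prdx1 were lost with the constant prior variance. Of 11 tested genes of lipid peroxidation and ferroptosis, the form of cell death that needs iron, 6 were higher and 1 lower, with a median of 0.16. They did not all act in one sense: Acsl4, which loads membranes with oxidisable fatty acids, rose 2.02-fold (log2 fold change 1.01, SE 0.049, limma adjusted p = 2.0e-14), and Gpx4, which repairs lipid peroxides, rose 1.36-fold (log2 fold change 0.44, SE 0.027, limma adjusted p = 1.5e-12). Lpcat3 and Por, which favour lipid peroxidation, rose by 0.40 and 0.36, calls lost with the constant prior variance.

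Other messenger RNAs known to carry an iron-responsive element showed no common direction, with 2 of 6 higher and 1 lower (1 and 2 without YBX1cKO replicate 2). Cdc14a, with a match in the 3′ UTR, had a log2 fold change of -1.02 (SE 0.14, limma adjusted p = 3.3e-06). Pfn2, among the higher ones, was low, with log2 levels of 3.05 and 1.90 in WT and of 3.64 and 3.71 in the knockout, and its call was lost without WT replicate 2 (log2 fold change 0.63) and without YBX1cKO replicate 2 (1.17).

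**Figure D5:**
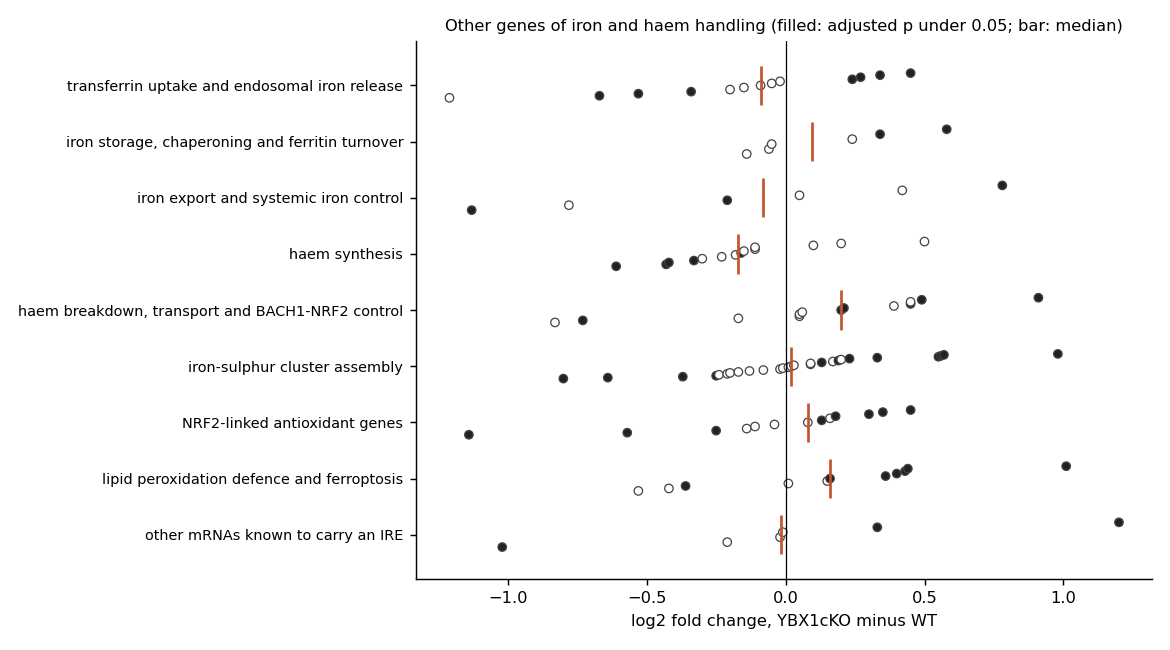
Log2 fold change of every tested gene in the 9 lists of iron and haem handling, with filled points for called genes and a bar for the median of each list. All called genes of haem synthesis lie left of 0, and every other list with more than 2 called genes has called genes on both sides.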

How the data were processed

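Per the labels' protocols, messenger RNA was isolated with oligo dT and random-primed; whether strand was kept is not stated there. The submitters' processing notes list featureCounts, DESeq2, CASAVA and HISAT2 (2.1.0), with GRCm38 as the build and no roles. The deposited table holds 1 log-scale score per gene and library, from -3.19 to 27.9, and the transformation the authors applied was not given. Columns were matched to samples by group and replicate number, with 0 left out. The table holds no counts, so depth is unknown; back-transformed sums ran from 11074317 to 12134026. On the scale used, replicates spread 1.1 (WT) and 1.31 (YBX1cKO) times as widely as Poisson counting (medians over genes), against 4.85 and 5.94 times for plain log2.

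Genes that reached a score of 1 in 2 or more libraries entered the fit, made with limma 3.58.1 in R 4.3.3 (variance trend, two-sided, Benjamini-Hochberg). The fit was also run on simulated data, where the noise of a gene followed its level alone. Such data cannot decide between the variance trend and a constant prior variance. The principal transcript is the best-ranked APPRIS transcript, RefSeq-matched where possible. The members, the gene lists and the rule for named genes were chosen with earlier results of these data known: all members and Ybx1, the 4 genes of smallest p among those called in each pathway list, the 3 of smallest p in each marker list (8 lists) and the genes most alike at 5 per 1000000 or more. Gene families were described by counts, without set tests. In the marker lists not described above, 3 of 8 stem and progenitor genes were lower and 0 higher (Mecom, Gata2, Ly6a), 2 of 2 T and NK cell genes were lower (Gzmb, Lat) and 1 of 1 B cell gene was higher (Cd79b). Ly6a lost its call without WT replicate 2 (log2 fold change -0.49), and Cd79b without WT replicate 1 (0.21), WT replicate 2 (0.32) or YBX1cKO replicate 1 (0.20), and with levels scaled to the same sum. Values of 1 gene that the rule names are not reported here.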

Additional observations from a re-analysis of the deposited data

How the results depend on the processing

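Scaling to equal sums and the summing of Ftl1 with its copies were chosen after seeing the data. The 8 members had 15 alternatives each. With a constant prior variance, 2267 genes were called (1177 higher, 1090 lower), of the members 2 (0 higher, 2 lower) and of the pathway genes 10 higher and 9 lower; Fth1 (0.36), Ftl1 (-0.12), Tfrc (-0.51) and Pcbp1 (-0.23) lost their calls, as did 28 of 60 other named genes, and the cause was not tested. Among those 28 genes were the markers Adgre1, Axl, Cd79b, Gata1, Hemgn, Ly6a, Siglec1 and Tal1, and also Acta2, Fbxw2 and Vps4b. Without a filter on low values 3941 genes were called. Under quantile normalization Ftl1 stood at 0, by its fixed rank, and Adgre1 at -0.20. With levels scaled to equal sums Adgre1 stood at -0.03 and 35 pathway genes were lower, since that scaling lowers every knockout value. With equal medians Steap3, not called, stood at 0.03. Leaving out 1 library at a time, each lone library being assumed to vary like the other group, gave 4662 to 5803 genes (2485 to 2982 higher, 2140 to 2821 lower), 6 members in every case (1 higher, 5 lower), and 29 to 32 pathway genes higher and 18 to 23 lower. Log2 fold changes then ran from 0.35 to 0.37 for Fth1, -0.15 to -0.09 for Ftl1, -0.60 to -0.42 for Tfrc, -0.53 to -0.43 for Ncoa4, -0.25 to -0.21 for Pcbp1, -0.62 to -0.58 for Hmox1, -0.17 to 0.11 for Steap3 and -0.20 to 0.04 for Ireb2. Deviations of same-numbered libraries had a correlation over genes of 0.013. With so few libraries, this cannot decide whether they were paired. With the replicate number as a block 6026 genes were called, and the same 6 members. The Fth1 to Ftl1 shift ran from 0.45 to 0.51 with 1 library left out, and was 0.47 with the copies and 0.69 with scores read as plain log2. Under quantile normalization it was 0.62, a value set by the ranks of the genes alone. Without counts, what depth limits cannot be stated.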
